A study of Mus musculus with 6 samples.

Results

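The genes described here encode the 5 subunits of the transcription factor NF-kB and 5 of its regulators. These are 3 cytoplasmic inhibitors, a nuclear protein of the same inhibitor family and a ubiquitin-editing inhibitor. The members were the rows of the deposited files whose gene symbol was Nfkb1, Nfkb2, Rel, Rela, Relb, Nfkbia, Nfkbib, Nfkbie, Nfkbiz or Tnfaip3, which gave 10 genes of 52550. Messenger RNA came from plasmacytoid dendritic cells of C57BL/6 mouse spleen, the interferon-producing dendritic cells that sense nucleic acids through endosomal Toll-like receptors. All 6 libraries came from cells kept for 12 hours with R837 (imiquimod), a synthetic ligand of the endosomal receptor TLR7. R837 was the only addition in 3 libraries and was combined in the other 3 with taurine, a sulfur-containing amino acid derivative. The labels state neither how the cells were purified nor whether replicates came from separate mice or cultures, so p-values measure only the spread between these libraries. Libraries without R837 were not analysed here.

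NF-kB is a dimer of Rel-family proteins that inhibitor (IkB) proteins hold in the cytoplasm of resting cells. In the canonical pathway, Toll-like receptors act through MyD88 to activate the IkB kinase, the inhibitors are degraded and dimers such as p50 with RelA or c-Rel enter the nucleus. In the non-canonical pathway, receptors such as CD40 stabilise the kinase NIK, the Nfkb2 product p100 is processed to p52, and p52 with RelB enters the nucleus. Several NF-kB genes and inhibitors are themselves NF-kB targets, which makes their transcripts part of a feedback loop.

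The binding site that NF-kB dimers share was looked for in the promoters of the members, to show which of them carry its sequence. RefSeq promoter windows (GRCm38.p6, 250 bases before to 50 after a start site) matched 7 of the 10 members. Nfkb1, Relb and Nfkbiz had no window and were not searched. The 10-base NF-kB consensus, searched on both strands with overlapping matches merged, was present in 5 of these 7 and in 8.46% of all 32851 windows. A match is a description of the sequence and does not show binding. Each line gives 30 bases, 5′ to 3′ on the strand of the gene, with the match in capitals.
Nfkb2 (chr19:46304689-46304718, plus strand): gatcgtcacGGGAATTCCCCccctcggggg
Nfkb2 (chr19:46304716-46304745, plus strand): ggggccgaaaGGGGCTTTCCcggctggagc
Rel (chr11:23771041-23771070, minus strand): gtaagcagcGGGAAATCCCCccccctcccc
Nfkbia (chr12:55492657-55492686, minus strand): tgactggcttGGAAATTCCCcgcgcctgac
Nfkbie (chr17:45555584-45555613, plus strand): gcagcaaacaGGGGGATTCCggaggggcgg
Tnfaip3 (chr10:19015516-19015545, minus strand): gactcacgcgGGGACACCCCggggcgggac
Tnfaip3 (chr10:19015403-19015432, minus strand): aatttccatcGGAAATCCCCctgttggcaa
The match of Nfkbia and the nearest matches of Nfkb2 and Tnfaip3 begin 29, 11 and 12 bases before the RefSeq start site. The windows of Rela and Nfkbib held no match in these letters.

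The files gave a normalized count per gene, that is, a whole number of reads scaled by the size factor of its library. Undoing that scaling gave library depths of 33585080 to 38392654 reads assigned to genes. Of the 18 plasmacytoid dendritic cell markers all passed the filter on low values, with a summed normalized count of 436175 to 474155 with R837 and 471196 to 488652 with taurine. Of these 18, limma called 3 higher and 4 lower with taurine. The called markers were Bst2, Tcf4, Irf7, Klk1, Cox6a2, Pacsin1 and Runx2, named in the order of the list and not by direction. Of all tested genes 3.75% were called higher and 2.66% lower, so the sum does not show that each marker was stable. The summed level of 8 B cell markers stayed between 1928 and 3026 over all libraries. Of 15265 genes tested with limma, 573 were called higher in the taurine group and 406 lower (threshold of 0.05 on the adjusted p). This split was 462 and 586 when the 50 most abundant genes were left out of the totals, and 662 and 303 once dependence on exon length and GC content had been subtracted in each library. Changes are differences in log2(normalized count + 1), taurine group minus R837 group, and ± is the SD over 3 libraries unless it is named as a standard error.

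The transcripts of the 10 members were abundant in both groups, and most of them moved little with taurine. Relb was the 1 member called higher, by 0.46 on the log2 scale, and no member was called lower. Nfkbiz (-0.14) and Tnfaip3 (-0.23) had negative log2 changes that did not pass. All 10 members passed the filter on low values. With limma 1 member was higher and 0 were lower, against 6.41% of all tested genes called in either direction (3.75% higher and 2.66% lower). A count of 1 in 10 does not set the members apart from all genes. edgeR (6.22% of 15265 genes called) and DESeq2 (15.9% of 12006 genes with an adjusted p) also called Relb alone among the members. At an unadjusted p under 0.05, 2 members were higher and 0 lower with each of the 3 tools. With limma 3622 of all 15265 tested genes passed this level in either direction, so this count does not set the members apart. The median log2 change of the members was 0.08, against -0.01 over all genes tested. All 3 taurine libraries lay above all 3 R837 libraries for Relb, Nfkb2 and Nfkbie, which is 3 of 10 members, where 14.6% of tested genes did so (29.6% in either direction). The remaining 7 members had overlapping groups. An exact permutation test over 3 against 3 libraries cannot give a p below 0.1, and Relb, Nfkb2 and Nfkbie each had p = 0.1 (two-sided).

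**Figure D1:**
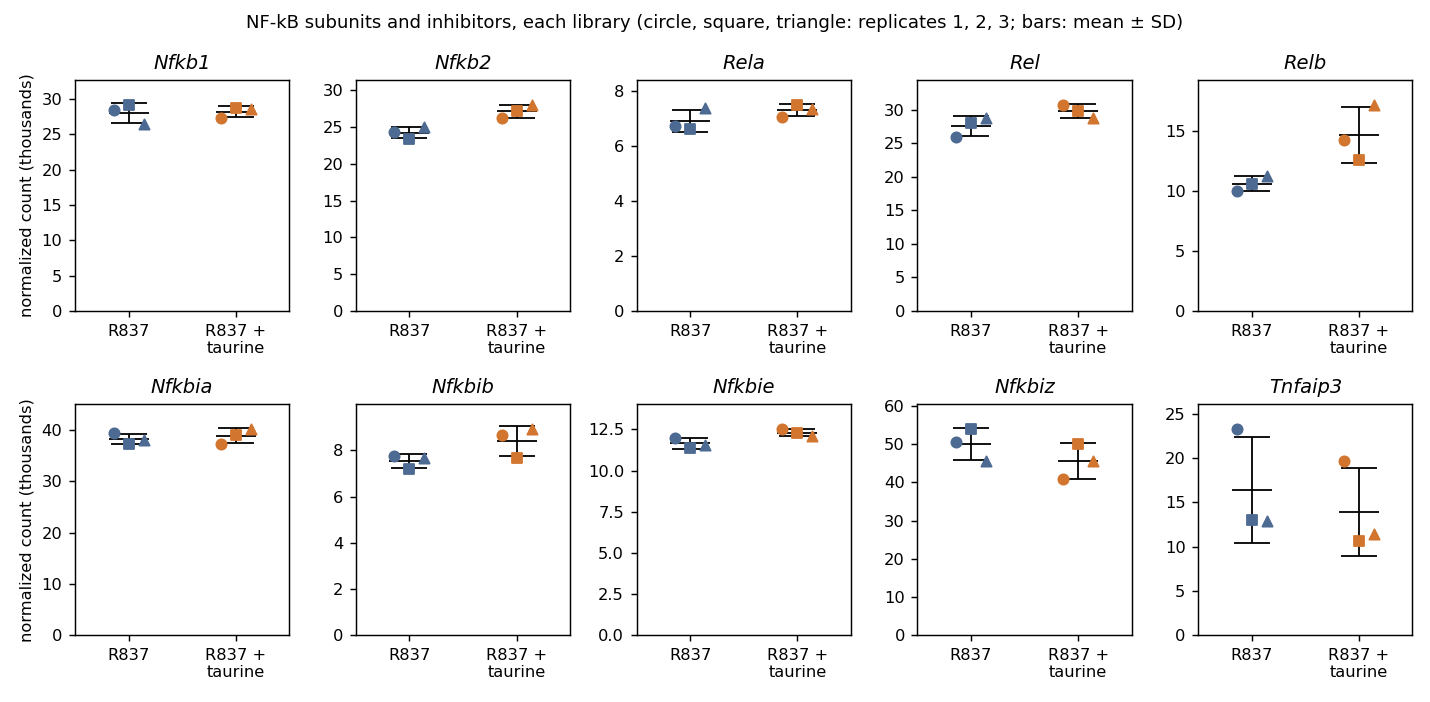
Normalized counts (vertical axis, starting at 0) of the 10 members in each library. Blue points are R837 and orange points R837 plus taurine, the marker shape gives the replicate number, and the bars show the mean ± SD of 3 libraries. Relb, Nfkb2 and Nfkbie show no overlap between groups, and Tnfaip3 is high in replicate 1 of both groups.

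Relb encodes RelB, the activating subunit that pairs with p52 in the non-canonical pathway (ENSMUSG00000002983.17, mm10 chromosome 7, 19606217 to 19629438, minus strand). Some dendritic cells need RelB for their development and maturation, and such a need in the cells used here was not tested. The normalized count of Relb was 10028, 10567 and 11297 in R837 replicates 1, 2 and 3. With taurine it was 14238, 12635 and 17223 in replicates 1, 2 and 3. The lowest taurine library, replicate 2, thus stood above the highest R837 library, replicate 3, and the taurine libraries were spread more widely. The mean went from 10631 ± 637 to 14699 ± 2328 (n = 3 each), a ratio of 1.38. The log2 change was 0.46 ± 0.11 (standard error), with a 95% interval of 0.21 to 0.71 and an adjusted p of 0.0450 (limma). This p lies just inside the threshold, and the member with the next smallest p, Nfkb2, was well outside it (adjusted p = 0.122). Leaving out R837 replicate 1 or 2 ended the call (adjusted p = 0.131 and 0.143), as did leaving out taurine replicate 1 or 3 (adjusted p = 0.1000 and 0.101), while the log2 change stayed between 0.34 and 0.56 over the 6 such fits. The call was also lost after quantile normalization (0.38, adjusted p = 0.0774), after rescaling without the 50 most abundant genes (0.42, adjusted p = 0.0566), with length and GC trends subtracted (0.40, adjusted p = 0.0504), without the filter on low values (adjusted p = 0.237) and without the abundance trend of limma (adjusted p = 0.169). edgeR and DESeq2 on the recovered reads gave adjusted p-values of 0.0451 and 0.00189.

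Markers of other spleen cells were summed beside this result. The 10 conventional dendritic cell markers, of which 2 were called lower and none higher, summed to 104527 to 111651 with R837 and to 90768 to 96675 with taurine, and none of them was at 0. The 12 monocyte and macrophage markers summed to 18044 to 19053 with R837 and to 18019 to 22012 with taurine, with Fcgr1 called higher. Neutrophil markers (8) went from between 1172 and 1711 to between 1722 and 2086, and erythroid markers (7) from between 86.6 and 126 to between 162 and 239, with Ngp and Hba-a1 called higher. T cell markers (9, of which 3 were at 0 in every library) summed to 1631 to 1749 with R837 and to 1276 to 1557 with taurine, without overlap and with 0 of the 3 tested called. Natural killer cell markers (6, of which 2 were at 0 in every library) summed to 43.7 to 67.9 and to 29.7 to 56.2. Plasma cell markers (6, of which 1 was at 0 in every library) summed to 20925 to 23529 and to 20600.1 to 21247. In bulk RNA, fewer cells of a type and less RNA per cell cannot be told apart. The part of these cells in the Relb value was not tested.

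Rela encodes RelA (p65), the main activating subunit of the canonical pathway (ENSMUSG00000024927.7, chromosome 19, 5637483 to 5648130, plus strand). It was at 6721, 6603 and 7362 with R837 and at 7044, 7494 and 7323 with taurine. R837 replicate 3 reached into the taurine range, and the log2 change of 0.08 (95% interval -0.08 to 0.24) did not pass (adjusted p = 0.539, limma).

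Rel encodes c-Rel, an activating subunit prominent in lymphoid and dendritic cells and a regulator of Il12b (ENSMUSG00000020275.9, chromosome 11, 23736847 to 23770970, minus strand). It was at 25899, 27949 and 28784 with R837 and at 30755, 29755 and 28729 with taurine. Taurine replicate 3 lay just below R837 replicate 3, so the groups overlapped by that pair alone. The log2 change was 0.11 (95% interval -0.03 to 0.25, adjusted p = 0.316, limma). With length and GC trends subtracted Rel passed, with 0.24 and an adjusted p of 0.0278, and Relb did not. Exon length correlated with how far a library's genes stood from their means over all libraries. This Spearman rho ran from 0.0443 to 0.147 in the R837 libraries and from -0.203 to -0.100 in the taurine libraries. For GC content the rho ran from -0.159 to -0.0550 with R837, and was -0.0441, 0.0561 and 0.234 in taurine replicates 1, 2 and 3. Each rho was taken across genes, which are not independent replicates.

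Nfkb2 encodes p100, which acts as an inhibitor until it is processed to the subunit p52 (ENSMUSG00000025225.14, chromosome 19, 46304737 to 46312090, plus strand). It stood at 24338, 23446 and 24949.5 with R837 and at 26279.7, 27154 and 28073 with taurine. The groups were separate, with means of 24245 ± 756 and 27169 ± 897. The log2 change of 0.16 (95% interval 0.03 to 0.29) did not pass (adjusted p = 0.122, limma). Its exons overlap those of Psd on the opposite strand by 299 bases. With all reads of Psd added the log2 change was 0.13, but this sum also carries Psd reads from outside the overlap.

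Nfkb1 encodes p105, the precursor of p50 (ENSMUSG00000028163.17, chromosome 3, 135584655 to 135691547, minus strand). Its normalized count was 28454, 29195 and 26485 with R837 and 27325, 28704 and 28572 with taurine. The taurine values lay inside the range of the R837 values. The log2 change was 0.01, with a 95% interval of -0.13 to 0.14 (adjusted p = 0.953, limma), and its sign turned under 2 rescalings. Nfkb1 has a long exon sequence, 12061 bases, and with length and GC trends subtracted its log2 change was 0.20 (adjusted p = 0.0633).

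Nfkbia encodes IkB-alpha, the fast-resynthesised inhibitor that closes the main feedback loop of the canonical pathway (ENSMUSG00000021025.8, chromosome 12, 55489410 to 55492647, minus strand). Its normalized count was 39344, 37279 and 37992 with R837 and 37229, 39018 and 40169 with taurine. The lowest of all 6 libraries was taurine replicate 1 and the highest taurine replicate 3, so the R837 libraries lay between them. The log2 change was 0.02, with a 95% interval of -0.10 to 0.15, which on a linear scale is 0.930 to 1.11 times the R837 level (adjusted p = 0.855, limma). Its sign turned under 2 rescalings and with length and GC trends subtracted.

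Nfkbib encodes IkB-beta, a slower inhibitor of the same kind (ENSMUSG00000030595.15, chromosome 7, 28758251 to 28767512, minus strand). It was at 7759, 7205 and 7682 with R837 and at 8643, 7686 and 8926 with taurine. Taurine replicate 2 lay inside the R837 range and the other 2 taurine libraries lay above it. The log2 change was 0.16 (95% interval -0.02 to 0.33, adjusted p = 0.267, limma). It was 0.05 with all reads of the overlapping genes Sirt2 and Ccer2 added. Their exons share 42 and 314 bases with those of Nfkbib, so this sum also carries reads from outside the overlap. It cannot show how many Nfkbib reads are shared, and the value for Nfkbib stays uncertain. Nfkbie encodes IkB-epsilon, an inhibitor that also holds RelA and c-Rel (ENSMUSG00000023947.7, chromosome 17, 45555716 to 45563169, plus strand). It was at 11994, 11355 and 11569 with R837 and at 12525, 12274 and 12096 with taurine. The groups were separate by a narrow margin, and the log2 change of 0.08 (95% interval -0.05 to 0.21) did not pass (adjusted p = 0.456, limma).

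Nfkbiz encodes IkB-zeta, a nuclear IkB protein that is induced by Toll-like receptors and works with p50 at genes such as Il6 (ENSMUSG00000035356.16, chromosome 16, 55811375 to 55838899, minus strand). It was at 50653, 53984 and 45584 with R837 and 40919, 50132 and 45613 with taurine. The groups overlapped, and R837 replicate 3 and taurine replicate 3 were nearly equal. The log2 change was -0.14 (95% interval -0.34 to 0.06, adjusted p = 0.388, limma), and it lay between -0.21 and -0.06 with 1 library left out.

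Tnfaip3 encodes A20, a ubiquitin-editing enzyme that switches off signalling upstream of the IkB kinase (ENSMUSG00000019850.11, chromosome 10, 19000910 to 19015657, minus strand). It was at 23272, 12978 and 12896 with R837 and at 19662, 10689.6 and 11388 with taurine. Replicate 1 was high in both groups, and the other 2 libraries of each group lay close together. The highest R837 value was 1.80 times the lowest, and the highest taurine value 1.84 times the lowest, against at most 1.18 and 1.36 for the other 9 members. The log2 change was -0.23 with the widest 95% interval of the members, -0.86 to 0.39 (adjusted p = 0.657, limma). It was 0.05 without R837 replicate 1 and -0.51 without taurine replicate 1, so the value rests on these libraries.

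**Figure D2:**
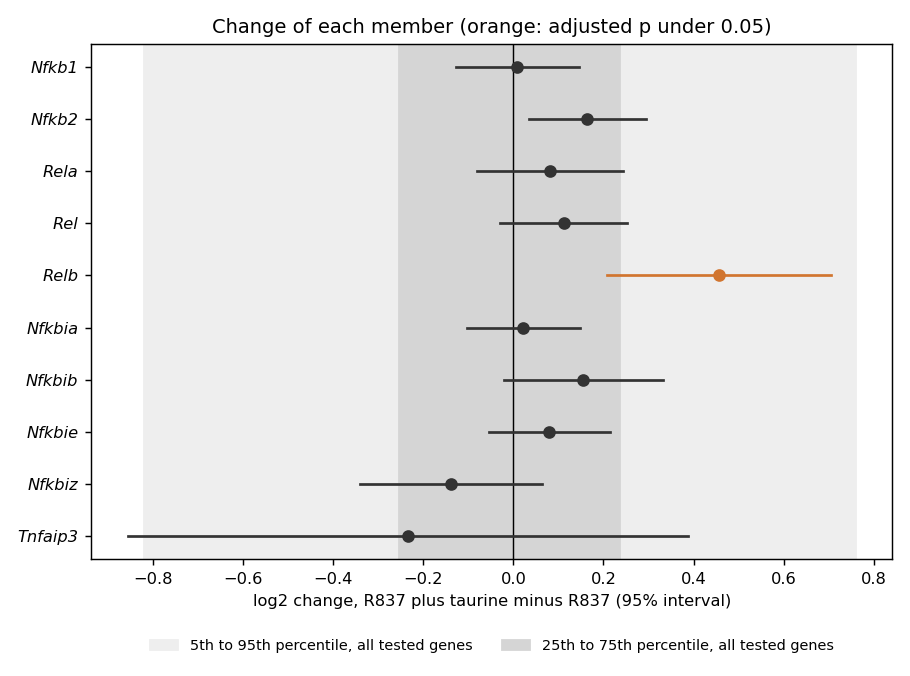
The horizontal axis is the log2 change, R837 plus taurine minus R837, with the 95% interval from limma as a line for each of the 10 members. Grey bands span the 25th to 75th and the 5th to 95th percentiles of all 15265 tested genes. Relb (orange, 0.46) lies outside the inner band, and the interval of Tnfaip3 is the widest.

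To compare levels between genes, normalized counts were divided by the exon length in kilobases (union of annotated exons, GENCODE M21). On this scale Nfkbia stood highest, at 23729.8 ± 652 with R837 and 24102 ± 920.1 with taurine, above 99.7% of tested genes. Nfkbiz followed with 9979 ± 843 and 9078 ± 918, and then Nfkb2 with 5289 ± 165 and 5927 ± 196. These 3 were separated from each other and from the members below in all 6 libraries. Nfkbie (3822 ± 107 with R837), Rel (3689 ± 199) and Nfkbib (3480.4 ± 138) came next, and neighbours among them did not differ beyond their spread. With R837, Relb (2736 ± 164) lay below all libraries of Nfkbib, while with taurine (3783 ± 599) it overlapped Nfkbib. Nfkb1 (2325 ± 116), Rela (2245 ± 133) and Tnfaip3 (2267 ± 826) had the lowest means and overlapped, and even Tnfaip3 stood above 94.0% of tested genes. Levels per length depend on which annotated exons the cells use.

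Relb made up a larger share of the subunit transcripts in each taurine library than in any R837 library. On the per-length scale Nfkb2 was the most abundant subunit, with 32.5% ± 0.855 of the 5 subunits with R837 and 32.2% ± 0.649 with taurine. Rel held 22.6% ± 0.736 and 21.7% ± 1.42. The share of Relb was 16.2%, 16.8% and 17.3% in the R837 libraries and 20.3%, 18.1% and 23.1% in the taurine libraries. Taurine replicate 2 lay nearest to the R837 libraries. The ratio of Relb to Rela was 1.18, 1.27 and 1.21 with R837 and 1.60, 1.33 and 1.86 with taurine. The ratio of Nfkb2 to Nfkb1 was 2.25, 2.11 and 2.48 with R837 and 2.53, 2.49 and 2.59 with taurine, separate by a narrow margin. The ratio of Nfkbia to Rela overlapped, with 10.6 ± 0.678 and 10.2 ± 0.274. The 3 cytoplasmic inhibitors Nfkbia, Nfkbib and Nfkbie summed to 2.01, 1.87 and 1.84 times the 5 subunits with R837 and to 1.73, 1.77 and 1.72 times with taurine. The sum of these inhibitors was not lower with taurine, at 31033 ± 878 with R837 and 32023 ± 926 with taurine. The sum of the 5 subunits was 16284 ± 461 and 18405 ± 654. These shares and ratios describe members chosen with earlier results known, and no test was run on them.

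**Figure D3:**
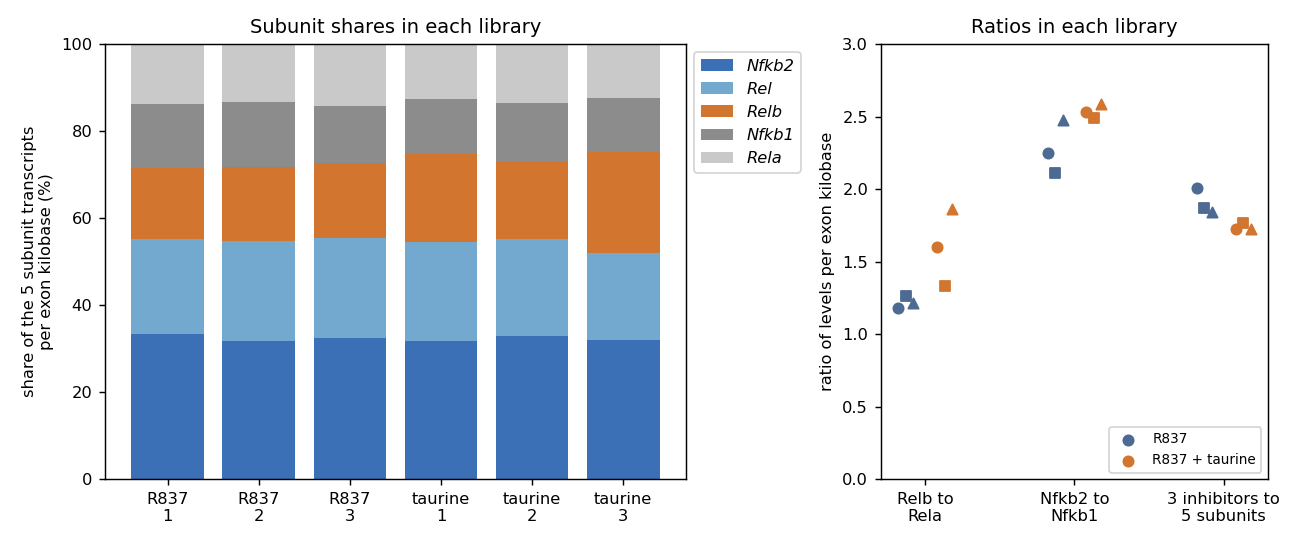
On the left, the share in percent of each subunit among the 5 subunit transcripts per exon kilobase, 1 bar per library. On the right, 3 ratios of per-kilobase levels in each library (blue R837, orange R837 plus taurine, shape by replicate). The Relb share is 16.2% to 17.3% with R837 and 18.1% to 23.1% with taurine.

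The 3 genes whose pattern over the 6 libraries was most like that of Relb were Ngdn (Pearson r = 0.997), Zfp36 (0.997) and Hspbp1 (0.996), on the log2 scale and out of 15265 genes. Zfp36, whose product is an RNA-binding protein that speeds the decay of cytokine messages, stood at 18502, 18860.4 and 19643 with R837 and at 21349.9, 20615 and 23079 with taurine. Their log2 changes of 0.32, 0.19 and 0.59 did not pass (adjusted p = 0.0865, 0.114 and 0.0645, limma). With 6 libraries and so many genes, values this high describe the ranking only.

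The machinery upstream of the subunits was read from a list of 47 measured genes, all tested, of which 2 were higher and 1 lower (limma), near the background of 6.41% of all tested genes. The median log2 change of the list was -0.01, equal to that of all genes, so these counts do not set the list apart. Traf1, an adaptor of TNF receptors that is itself an NF-kB target, went from 26367 ± 974 to 31974 ± 1478 (log2 change 0.28 ± 0.06 (standard error), adjusted p = 0.0330). Rbx1, the RING subunit of the cullin ligases, including the one that marks IkB for degradation, went from 1678 ± 12.9 to 2357 ± 207 (log2 change 0.49 ± 0.09 (standard error), adjusted p = 0.0205). In both genes the groups did not overlap, and leaving out each library in turn kept each call in 1 of 6 fits. Leaving out R837 replicate 1, 2 or 3 gave 1, 0 and 6 called genes in place of 3, and leaving out any single taurine library gave 0. edgeR called 4 genes of this list and DESeq2 10, against backgrounds of 6.22% and 15.9%.

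The kinases of the pathway did not pass with limma, whose values are given here. The catalytic IkB kinase subunits gave log2 changes of -0.36 for Chuk (adjusted p = 0.0858) and -0.01 for Ikbkb (adjusted p = 0.961), and the NIK gene Map3k14, which starts the non-canonical pathway, gave 0.09 (adjusted p = 0.719). Map3k14 was at 6502, 7504 and 9098 with R837 and at 7413, 8074 and 8881 with taurine, with the taurine libraries inside the R837 range. The ubiquitin ligase adaptors that hold NIK down gave 0.27 for Traf2 (adjusted p = 0.0558) and -0.46 for Traf3 (adjusted p = 0.0543), both just outside the threshold of limma. DESeq2 called Chuk, Traf2 and Traf3, and limma called Traf2 with length and GC trends subtracted. Traf3 was at 1563, 1440.1 and 1206 with R837 and at 1022, 967 and 1056 with taurine. Birc3, the cIAP2 ligase of the same complex, gave -0.10 (adjusted p = 0.315). Among the nuclear IkB relatives, Bcl3 gave -0.10 and Nfkbid 0.16, and neither passed (adjusted p = 0.517 and 0.212). limma called 0 of the 10 partners of A20 and other deubiquitinases or RNA regulators listed with it (log2 changes of -0.31 to 0.29), while DESeq2 called Itch, Tnip3 and Otulin. Of the 3 subunits of the linear ubiquitin ligase limma called 0, with Rbck1 closest at 0.34 (adjusted p = 0.0512), and both edgeR and DESeq2 called Rbck1.

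Among genes commonly cited as NF-kB targets, 4 of 7 chemokines (Cxcl10, Ccl5, Ccl4 and Cxcl1), Ccr7 and Cd40 rose, and limma called no target lower. The chemokines Ccl3 (0.09), Ccl22 (0.11) and Cxcl2 (0.47) did not pass with limma (adjusted p = 0.528, 0.427 and 0.0599), and DESeq2 called Cxcl2. Of 40 listed targets 39 were tested, and 12 were higher and 0 lower (limma), where 3.75% and 2.66% of all tested genes were. The list was chosen with earlier results of these data known, so these counts describe it and do not test it. Traf1 is among the 12 and was also counted in the list of regulators. The median log2 change of the targets was 0.28 against -0.01 over all genes. At an unadjusted p under 0.05 (limma), 20 were higher and 0 lower, where 3622 of all 15265 tested genes passed in either direction. edgeR called 12 higher and 0 lower of the 39 (571 of all 15265 genes were higher, and 6.22% were called in either direction). DESeq2 called 19 higher and 0 lower of the 36 with an adjusted p (994 of 12006 genes were higher, and 15.9% were called in either direction). Groups did not overlap in 20 higher and 1 lower of the 39, where 14.6% and 15.0% of tested genes did so. The chemokine Cxcl10 went from 16868 ± 1675 to 31958 ± 1649 (log2 change 0.93, adjusted p = 0.00286). The chemokine receptor Ccr7 went from 95821 ± 3594 to 136930.2 ± 8345 (0.51, adjusted p = 0.00493), and the chemokine Ccl5 from 24962 ± 1840.1 to 35888 ± 2036 (0.52, adjusted p = 0.00787). Cd40, whose product is a receptor that feeds the non-canonical pathway, was at 13424, 12415 and 13428 with R837 and at 18163, 17545 and 20369.8 with taurine (log2 change 0.51, adjusted p = 0.0101). Marcksl1 and Ccl4 rose by 0.52 and 0.34 (adjusted p = 0.0183 and 0.0204). The calls of Cxcl10, Ccr7 and Ccl5 held in all 6 fits that lacked a library, that of Cd40 in 5, and those of Marcksl1 and Ccl4 in 2. Leaving out R837 replicate 1, 2 or 3 gave 7, 3 and 14 called targets in place of 12, and leaving out taurine replicate 1, 2 or 3 gave 5, 5 and 4.

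Some of these targets, among them Cxcl10, Ccl5 and Irf1, also answer to interferon, so the list is not specific to NF-kB. The target Tnf, the prototype inflammatory cytokine, gave 0.05 (adjusted p = 0.807) and Il6 0.37 (adjusted p = 0.215). After quantile normalization 6 targets passed, and 13 passed with length and GC trends subtracted.

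**Figure D4:**
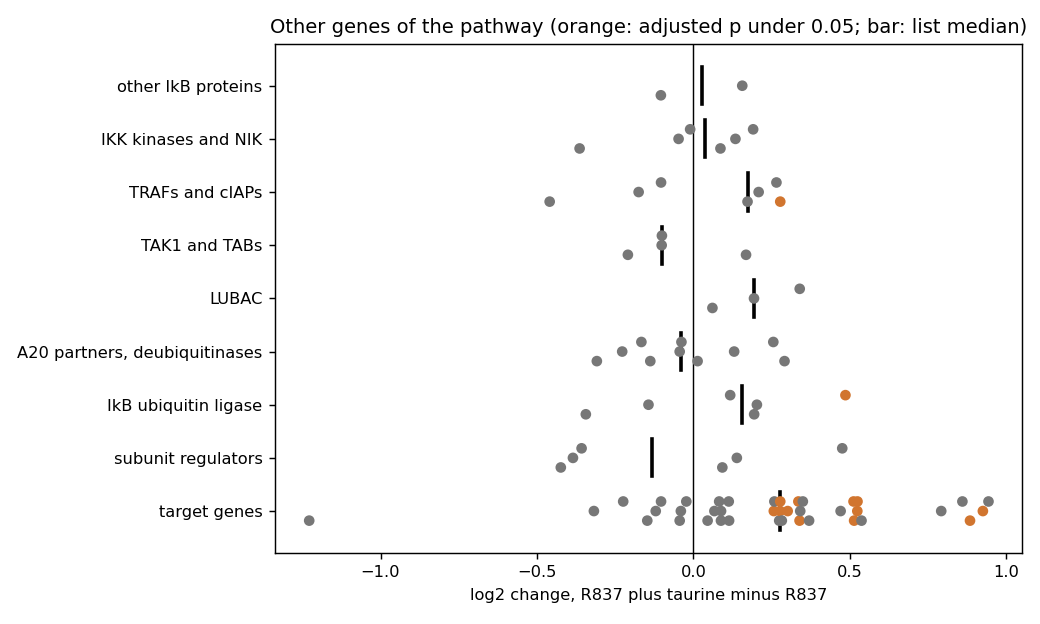
Each point is 1 tested gene, placed by its log2 change (horizontal axis, R837 plus taurine minus R837) within 8 lists of pathway regulators and 1 list of target genes. Orange points have an adjusted p under 0.05 and black bars are list medians. The target list has 12 orange points, all to the right of 0, and a median of 0.28.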

How the data were processed

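Messenger RNA libraries (VAHTS mRNA-seq v2 kit, per the labels) of 6 samples were analysed, 3 per group, grouped by title. The authors deposited a signal value per gene, named a normalized count per the file headers. Within a tolerance of 0.001 of a read, 100.0% of values were whole multiples of a single step in each library, so the deposited values are reads divided by factors between 0.942 and 1.06. The submitters' processing notes name the builds mm8 and mm10 and the programs HISAT2 and StringTie, without roles. For the counting tool and its strand setting the entry is "not given in the sources used here", so reads of overlapping genes cannot be told apart. GENCODE M21 (mm10) held 52403 of the gene identifiers, 95.2% of them with the same coordinates.

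Genes that reached a normalized count of 10 in 3 or more libraries were tested on log2(normalized count + 1) with limma 3.58.1 (R 4.3.3; abundance trend, two-sided, Benjamini-Hochberg over 15265 genes, threshold 0.05). The pseudocount of 1 hardly moves genes at these levels. edgeR 4.0.16 and DESeq2 1.42.0 were run on the same genes, of which DESeq2 gave an adjusted p for 12006. The other alternatives used these genes too, except those that change the filter on low values. edgeR on the recovered reads called 950 genes. The length and GC trend was fitted with mgcv 1.9.3. Scripts were tested on simulated data. Every pair of libraries in a group differed by more than sampling noise. The members, gene lists and tests were chosen with earlier results of these data known. Named were all members, the called genes of the regulator list (1 of them is not reported here), the 6 targets with the smallest p, the 3 genes most like the member with the smallest p, and members next to the threshold; the other list genes named were chosen after their values were seen.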

Additional observations from a re-analysis of the deposited data

How the results depend on the processing

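The direction of Relb, Nfkb2, Rel, Rela, Nfkbib, Nfkbie and Nfkbiz was the same in all 20 alternatives run for each. Changing only the filter, the abundance trend or the replicate block leaves the log2 change as it was and cannot turn a sign. Adding all reads of the overlapping genes changed only Nfkb2 and Nfkbib. Relb was past the threshold in 10 of the 20 alternatives. Of 979 genes called by limma, the number was 72 with no filter on low values (where most residual variances were 0 and the moderation is unreliable), 4 without the abundance trend and 1913 with DESeq2; it ran from 134 (without R837 replicate 2) to 1477 (without R837 replicate 3) with 1 library left out. The 1 called member became 0 with no filter, with quantile normalization, without the 50 most abundant genes in the totals and without the abundance trend, and 0 to 1 with 1 library left out. With the length and GC trends removed the count stayed 1, but the called member was Rel. The 3 called regulators became 5 without the 50 most abundant genes, 6 with the trends removed and 0 to 6 with 1 library left out. The 12 called targets became 6 with quantile normalization and 3 to 14 with 1 library left out. Signs turned for Nfkb1 (-0.0895 with quantile normalization, -0.0250 without the 50 most abundant genes, -0.0318 to 0.0384 with 1 library left out), for Nfkbia (-0.0712 and -0.0117 under the same rescalings, -0.0531 with the trends removed with or without the block, -0.00313 to 0.0517 with 1 library left out) and for Tnfaip3 (-0.51 to 0.0482 with 1 library left out). The cause of these differences was not tested.

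The titles give both groups replicates 1 to 3. Over all tested genes, same-numbered libraries did not deviate together (r = -0.00264, -0.00681 and -0.0434). The labels do not state whether such libraries share a mouse or a culture, and these correlations cannot decide it. With the replicate block 615 genes were called, and 597 with the block and the trends removed. No library correlated best with its own number. With the replicate block Relb kept its call (adjusted p = 0.0423) and Tnfaip3, at -0.23, had an unadjusted p of 0.00692 and an adjusted p of 0.0834. The lowest normalized count of a member in any library was 6603 (Rela, R837 replicate 2).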

Other observations

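Tnfaip3 was high in replicate 1 of both groups, and the rest of the pathway did not share this. A gene was counted when the library of 1 replicate number was at least 1.5 times the other 2 libraries of its group, in both groups, with a mean normalized count of at least 100; this rule was chosen after the values of Tnfaip3 were seen. Of 10712 genes, 4 met it for replicate 1, 1 for replicate 2 and 3 for replicate 3, and Tnfaip3 was the single member or listed regulator or target among them. In replicate 1 of a single group, 74 genes met the fold with R837 and 77 with taurine. Beside Tnfaip3, the genes high in replicate 1 of both groups were Tor3a, Zfp607a and Gm20716. Tor3a, an interferon-inducible torsin ATPase, stood at 13086, 5237 and 6849 with R837 and at 14183, 8957 and 8670.2 with taurine.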
